A study of Mus musculus with 15 samples.

Results

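The genes described here are 48 mouse genes of oxidative stress defence and glutathione metabolism. They were grouped by function, with earlier results of these data known, so their shares and medians below are descriptions. A gene counted as measured when at least 1 array probe carried that gene's symbol, and no other, in the platform annotation. Of the 48, 41 were measured, by 43 probes, among the 13273 features (genes, or probes without a gene name) that had enough values to be tested. Mgst2, Prdx5, Prdx6, Fth1, Blvra, Mt1 and G6pdx had no such probe and were not analysed here. All 41 measured genes had values on at least 3 arrays of each group, and 25 had a value on all 15 arrays.

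Cells that use oxygen make superoxide and hydrogen peroxide, and phagocytes make them on purpose through the NADPH oxidase. Superoxide dismutases turn superoxide into hydrogen peroxide, which glutathione peroxidases and peroxiredoxins then reduce with electrons from glutathione and thioredoxin. Both carriers are recharged with NADPH, much of it from the pentose phosphate pathway, and many of these genes are induced by the transcription factor Nrf2 (Nfe2l2) once its inhibitor Keap1 lets go of it. Alveolar macrophages, the phagocytes of the airspaces, live in contact with inhaled oxygen and dust and also clear heme and iron from spilled red cells.

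Total RNA of alveolar macrophages from 3 groups of mice was measured, with 5 arrays a group. The first group (b6-/-TGFb+/+Dox) lacked the integrin beta6 subunit and had been reconstituted with TGFb1. The second (b6-/-Dox) lacked beta6, and the third (b6+/+Dox) was wild type. Mice of all 3 groups, wild type included, received doxycycline. Integrin beta6 is an epithelial subunit whose partner alphav makes with it a receptor that activates latent TGFb in the lung, and Mmp12, the macrophage metalloelastase, is known for its high level in macrophages of beta6 null mice. The labels name no strain, age or sex, no promoter for the TGFb1, no doxycycline dose, and do not say whether arrays are separate animals or pools, so what the p-values weigh is spread among arrays, some of which may be technical.

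Each array compared a sample with a common macrophage reference RNA, and a value below is the log2 ratio of sample to reference after centring the array on its median. The direction and the base of the deposited ratios are not stated. They are read here as sample over reference, which is likely given that the reference is channel 1 and that Mmp12 read 2.26 ± 0.61 (SD, n = 5) in beta6 null macrophages with TGFb1, 4.57 ± 0.82 (SD, n = 5) in beta6 null macrophages and 0.26 ± 0.22 (SD, n = 4) in wild type macrophages. Arrays held 13093 to 16310 values with TGFb1, 11615 to 16483 in beta6 null and 11714 to 16131 in wild type. The widest spread of values, and the most missing ones, belonged to replicate 2 of wild type and replicate 1 of beta6 null. Xist, a transcript of the inactive X chromosome, ranged from -3.48 to -2.27 with TGFb1, from -2.46 to 0.88 in beta6 null and from -4.14 to -2.37 in wild type, so 4 of the 5 beta6 null arrays stood apart from all other arrays on it, and beta6 null replicate 4, at -2.46, did not. Of 3 measured genes of a sex list, Xist passed for beta6 null against wild type (2.69, adjusted p 0.0444, limma). The 2 others were lower and did not pass. What sets Xist apart goes largely with the beta6 null group. In both comparisons with that group it cannot be told apart from the differences below.

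None of the 41 genes passed an adjusted p of 0.05 in any of the 3 comparisons. Among all features 0.708% passed for beta6 null with TGFb1 against beta6 null, 0.949% for beta6 null against wild type and 0% for beta6 null with TGFb1 against wild type (limma, Benjamini-Hochberg over all features). The clearest differences lay between beta6 null macrophages with TGFb1 and beta6 null macrophages. In that comparison 9 of 41 genes (22.0%) had an unadjusted p under 0.05, 8 of them higher with TGFb1 (Hmox1, Taldo1, Gsto1, Sod1, Mt2, Mgst1, Pgd and Glrx) and 1 lower (Prdx2). Of all features 15% had such a p, 11.1% higher and 3.85% lower. For beta6 null against wild type the count was 6 of 41 (14.6%) against 11.5% of all features, with 3 genes higher (4.28% of all features) and 3 lower (7.2%). For beta6 null with TGFb1 against wild type it was 6 of 41 (14.6%) against 6.28% of all features, with 5 genes higher (4.25% of all features) and 1 lower (2.03%). Each pair of these comparisons shares a group of arrays, so their counts are not independent.

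The same genes can be read by how far the groups lay apart. On all arrays, 5 of 41 genes (12.2%) were higher with TGFb1 than on every beta6 null array (Hmox1, Taldo1, Gsto1, Sod1 and Glrx), and none was lower. Of all features 8.26% did not overlap between these groups, 6.36% higher and 1.91% lower. Against wild type, beta6 null arrays did not overlap for 3 genes (7.32%): Prdx2 and Gstp1 were higher and Mt2 was lower, beside 5.12% of all features, 2.06% higher and 3.06% lower. Beta6 null arrays with TGFb1 lay wholly above the wild type arrays for Hmox1, Gsto1 and Gstp1 (7.32%), beside 2.88% of all features, 1.79% higher and 1.09% lower.

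The median difference of the 41 genes between beta6 null with TGFb1 and beta6 null was 0.43, and that of all features was 0.12. Of the 41, 32 (78.0%) had a difference above 0, as had 56.7% of all features, and with 1 array left out 29 to 33 had. Between beta6 null and wild type the median was -0.16, with 15 of 41 (36.6%) above 0, against -0.05 and 46.9% for all features. Between beta6 null with TGFb1 and wild type it was 0.30, with 29 of 41 (70.7%) above 0, against 0.07 and 55.4% for all features. Refits with 1 array left out in turn tested 38 to 41 of the genes. In them the 3 medians ran from 0.28 to 0.63, from -0.34 to -0.08 and from 0.12 to 0.50.

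Alveolar macrophage markers, a list chosen with earlier results of these data known, differed between the same groups in their mean, though not in every gene. Of 23 listed markers 17 were measured, and the mean over the 14 of them with a value on all 15 arrays was -1.04 to -0.39 with TGFb1, -2.20 to -1.95 in beta6 null and -1.37 to -0.25 in wild type. In beta6 null with TGFb1 against beta6 null all 17 had a difference above 0, and 5 rose (Krt19, Il18, Pparg, Olr1 and Fabp1). In beta6 null against wild type 5 fell (Krt19, Il18, Olr1, Cidec and Fabp1). There, 15 of the 17 had a difference below 0, and 11 were lower at an unadjusted p under 0.05. The rest moved less: Fabp4 by 0.30, Itgax by 0.04, Car4 by -0.21, Cd9 by -0.40, Mrc1 by -0.46 and Marco by -0.50. For the 7 other marker lists, taken in the same way over complete markers, the beta6 null range overlapped that of both other groups. Complete markers are only part of each list and were chosen after seeing the data. Over all measured markers, beta6 null arrays lay above wild type for monocyte and dendritic markers (0.16 to 0.88 against -0.63 to 0.07). They also did for red cell markers (0.355 to 1.09 against -2.40 to 0.32). For fibroblast and endothelium markers they lay below (-0.94 to -0.08 against 0.02 to 0.63). Each of these means is over the markers with a value on that array, so arrays differ in the markers covered. Only 5 of 12 monocyte and dendritic markers and 2 of 4 red cell markers had values on all 15 arrays. Beta6 null and TGFb1 ranges overlapped for all 7 lists. The red cell mean, over 2 markers, was 0.13 to 0.44 with TGFb1, -0.86 to 0.48 in beta6 null and -3.55 to 0.64 in wild type, and none of the 4 measured red cell markers passed. Markers of other cells that passed for beta6 null against wild type were Ly75 (dendritic cells), Eng and Flt1 (endothelium) and Epcam (epithelium), all lower, and Sftpc (epithelium) and S100a8 (neutrophils), both higher. Ly75 and Epcam went against most of their lists. Of 12 measured monocyte and dendritic markers 9 had a difference above 0. At an unadjusted p under 0.05, 5 of the 12 were higher and 1, Ly75, lower. Of 16 epithelium markers 10 had a difference above 0. For beta6 null with TGFb1 against beta6 null the markers of other cells that passed were Itgae (dendritic cells), lower, and Epcam, higher. There, 12 of the 16 epithelium markers had a difference below 0. Over the 4 complete markers of the fibroblast and endothelium list the mean was -0.41 to 0.16 with TGFb1 and 0.52 to 1.27 in wild type, 2 ranges that do not overlap. Over all 8 measured markers it was -0.46 to 0.03 with TGFb1 and 0.02 to 0.63 in wild type, which overlap. The part of these markers in the values of the oxidative stress genes was not tested. In RNA from many cells, fewer cells of a type and less RNA per cell cannot be told apart.

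**Figure D1:**
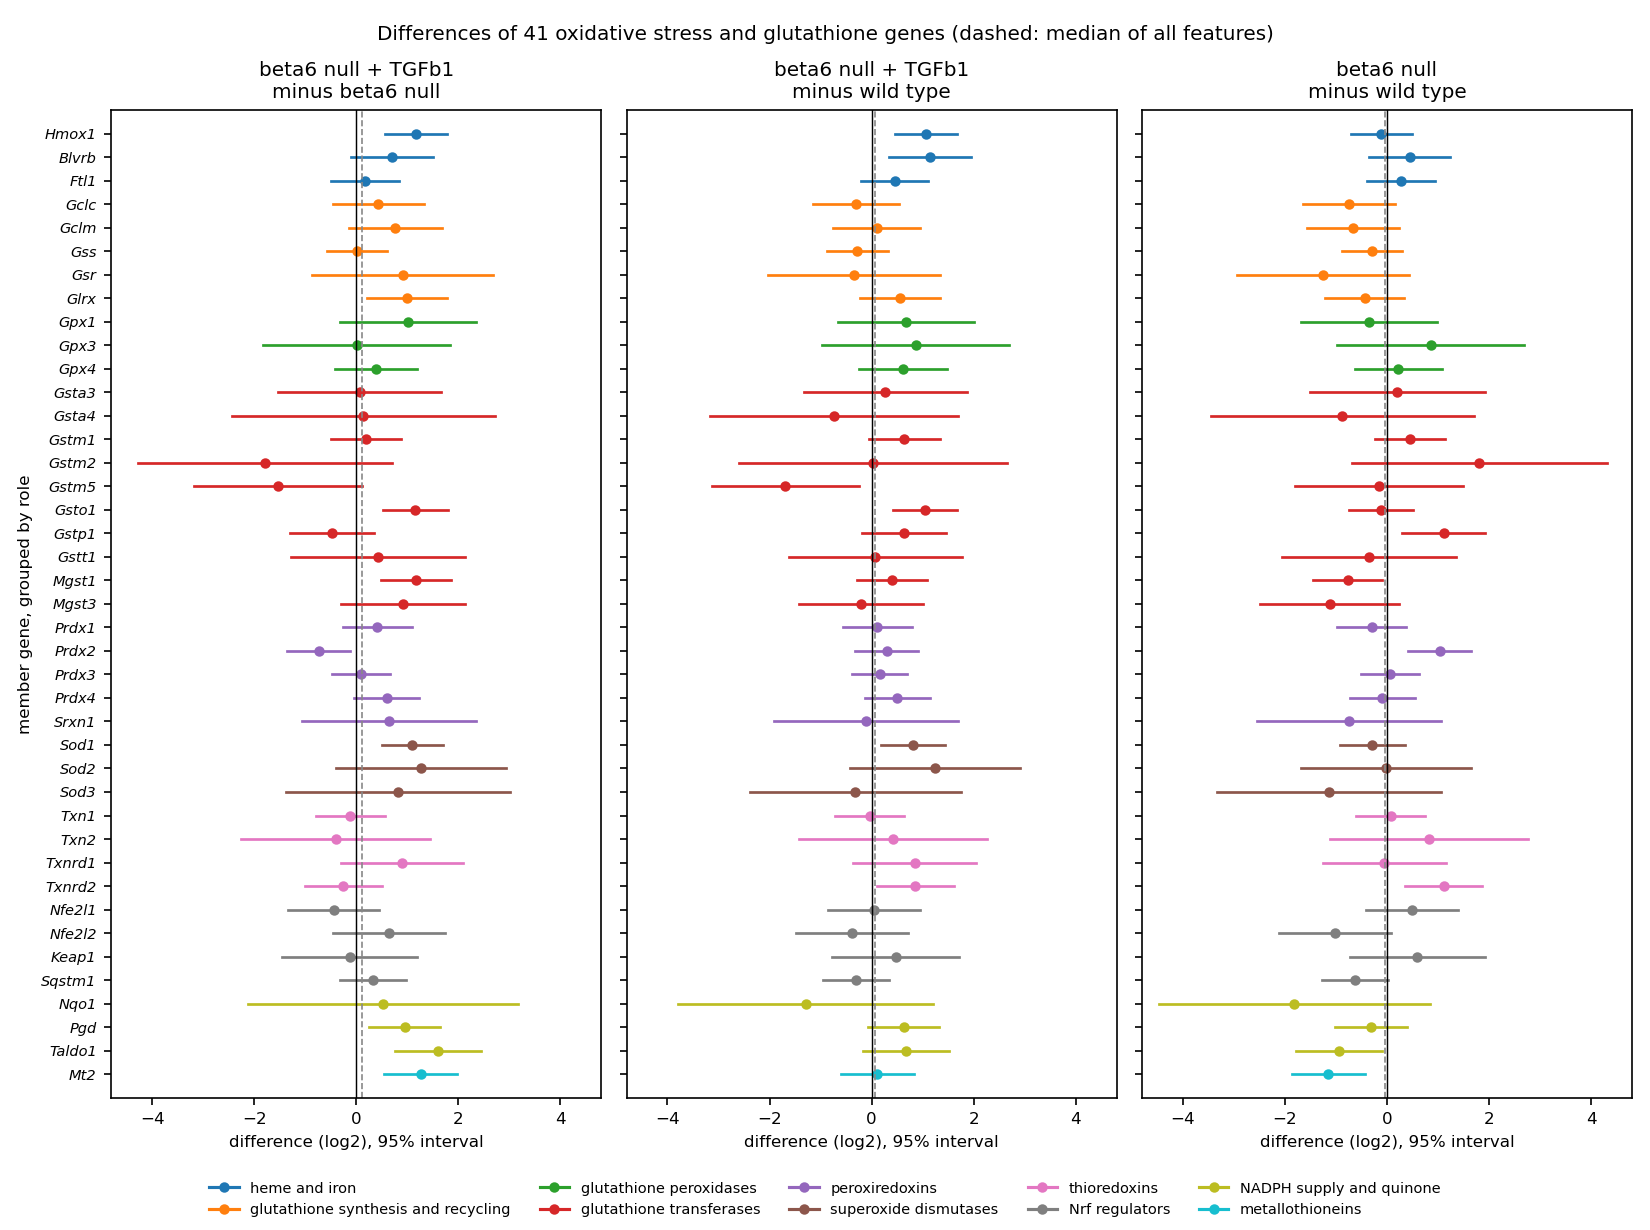
The difference in log2 ratio of each of the 41 measured genes (point) with its 95% interval (bar) in the 3 comparisons, coloured by role, beside the median of all 13273 features (dashed line). In the panel of beta6 null with TGFb1 minus beta6 null, 32 of the 41 points lie above 0, and in the panel of beta6 null minus wild type 15 do.

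Many genes of this set carry an antioxidant response element (ARE), the site bound by Nrf2, before their start, and metallothionein genes carry metal response elements (MRE), the site bound by the metal sensor Mtf1. RefSeq start sites of the assembly GRCm38.p6 gave the 250 bases before the start for 42 of the 48 genes. The letters TGACNNNGC, searched on both strands, occurred in at least 1 such stretch of 11 of these 42 genes (26.2%): Blvra, G6pdx, Gclm, Gsta3, Gstm5, Mgst1, Mt2, Nfe2l2, Prdx1, Sod1 and Txnrd1. Counted by stretch, 11 of 57 (19.3%) had a match, against 10.2% of the 32851 such stretches in the table. The MRE core, TGCACNC or TGCGCNC, was present in 21.4% of all stretches, and 1.26% held at least 3 matches. Such a match is a run of letters in this window and no measured binding site.

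Of the 11 genes described on every array below, 10 had a stretch in the table and 4 of the 10 held the ARE letters. These 4, Mt2, Sod1, Mgst1 and Gstm5, are shown. Mgst1 has a further start site whose stretch held no match and is not shown. Each runs 5′ to 3′ on the strand of the gene and ends at the base before the start, and capitals mark the ARE match and, for Mt2, the 3 MRE matches. The stretches are chr8:94172368-94172617 for Mt2, chr16:90220512-90220761 for Sod1, chr6:138140277-138140526 for Mgst1 and chr3:107895604-107895853 for Gstm5, all on the plus strand of GRCm38.p6.
Mt2: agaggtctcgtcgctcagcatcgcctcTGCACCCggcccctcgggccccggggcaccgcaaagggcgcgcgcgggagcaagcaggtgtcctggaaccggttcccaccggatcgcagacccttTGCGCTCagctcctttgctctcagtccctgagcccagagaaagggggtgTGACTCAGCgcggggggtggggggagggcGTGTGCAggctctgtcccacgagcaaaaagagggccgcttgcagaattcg
Sod1: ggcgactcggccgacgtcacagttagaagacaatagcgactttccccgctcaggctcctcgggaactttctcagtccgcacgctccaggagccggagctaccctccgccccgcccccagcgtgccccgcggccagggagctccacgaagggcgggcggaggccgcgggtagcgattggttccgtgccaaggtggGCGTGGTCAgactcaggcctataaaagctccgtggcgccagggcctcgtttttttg
Mgst1: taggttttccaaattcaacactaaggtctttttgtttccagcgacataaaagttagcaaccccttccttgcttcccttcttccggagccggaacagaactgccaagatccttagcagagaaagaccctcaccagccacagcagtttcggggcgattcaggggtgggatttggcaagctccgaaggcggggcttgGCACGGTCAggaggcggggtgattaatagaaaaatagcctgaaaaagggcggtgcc
Gstm5: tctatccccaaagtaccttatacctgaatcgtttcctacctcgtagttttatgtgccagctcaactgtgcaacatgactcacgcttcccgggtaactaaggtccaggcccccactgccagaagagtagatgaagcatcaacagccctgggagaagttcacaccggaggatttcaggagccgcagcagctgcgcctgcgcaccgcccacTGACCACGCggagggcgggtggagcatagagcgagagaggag
In Mt2 the ARE match, TGACTCAGC, lay 79 to 71 bases before the start and contains the letters TGACTCA bound by AP-1 factors. Its MRE matches lay at 223 to 217, 128 to 122 and 50 to 44 bases before the start. In both Mgst1 and Sod1 the ARE match lay on the opposite strand, 56 to 48 bases before the start, as GCACGGTCA in Mgst1 and GCGTGGTCA in Sod1. In Gstm5 it was TGACCACGC, 42 to 34 bases before the start. Gstm5 also holds 1 MRE match, TGCGCAC, 56 to 50 bases before the start, which is not in capitals.

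The first comparison asks how beta6 null macrophages with TGFb1 differ from beta6 null macrophages. Hmox1, heme oxygenase, which breaks heme down to biliverdin, iron and carbon monoxide, read 0.85, 1.04, 1.26, 1.82 and 0.76 on the 5 arrays with TGFb1. It read -0.69, 0.43, -0.36, 0.19 and 0.33 on the beta6 null arrays and -0.02, 0.02, 0.23, -0.09 and 0.28 on the wild type arrays. Every array with TGFb1 was above every array of the other groups, and the beta6 null and wild type arrays overlapped. The difference of beta6 null with TGFb1 to beta6 null was 1.17 ± 0.28 (SE), with a 95% interval of 0.56 to 1.78 and an adjusted p of 0.073, which is 2.25-fold if the values are log2. Against wild type the difference was 1.06 ± 0.28 (SE), with an adjusted p of 0.651, the smallest of the 41 genes in that comparison.

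Taldo1, the transaldolase of the pentose phosphate pathway, had the largest difference of the 6 genes with the smallest p. With TGFb1 it read 0.15, -0.88, 0.09, -0.33 and -0.47, against -3.15, -1.72, -1.31, -1.71 and -1.57 in beta6 null and -1.34, -1.62, -0.09, -1.31 and -0.41 in wild type. The TGFb1 arrays lay above all beta6 null arrays, and wild type arrays overlapped both groups. Beta6 null with TGFb1 exceeded beta6 null by 1.61 ± 0.40 (SE), with a 95% interval of 0.76 to 2.45 and an adjusted p of 0.0753. Pgd, the phosphogluconate dehydrogenase that makes NADPH in the same pathway, averaged -0.32 ± 0.32, -1.27 ± 0.64 and -0.95 ± 0.43 (SD, n = 5 each) in beta6 null with TGFb1, beta6 null and wild type. Its difference of beta6 null with TGFb1 to beta6 null was 0.95 ± 0.33 (SE), with an adjusted p of 0.191.

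Gsto1 is a glutathione transferase of the omega class that also reduces dehydroascorbate. It read -0.62, -0.89, -0.60, -0.34 and -0.82 with TGFb1, -2.19, -1.82, -1.52, -1.80 and -1.73 in beta6 null and -1.99, -2.62, -1.07, -1.64 and -1.17 in wild type. All TGFb1 arrays were above all arrays of both other groups, although each value was below 0, the median ratio of its array. The difference of beta6 null with TGFb1 was 1.16 ± 0.30 (SE) to beta6 null (95% interval 0.52 to 1.79, adjusted p 0.0851) and 1.04 ± 0.30 (SE) to wild type (adjusted p 0.757).

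Sod1, the copper and zinc superoxide dismutase of the cytosol, read 0.19, 0.33, -0.10, -0.23 and -0.63 with TGFb1 and -1.64, -1.15, -1.36, -0.89 and -0.88 in beta6 null. The 4 wild type arrays with a value read -1.38, -0.50, -1.03 and -0.68, and wild type replicate 2 had none. All TGFb1 arrays were above all beta6 null arrays, while 1 TGFb1 array, at -0.63, lay within the wild type range. Beta6 null with TGFb1 exceeded beta6 null by 1.10 ± 0.28 (SE), with a 95% interval of 0.50 to 1.69 and an adjusted p of 0.0882.

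Mt2, a metallothionein, binds zinc and copper and is induced by metals, glucocorticoids and oxidants. On arrays with TGFb1 it read 1.04, 0.89, 0.84, 0.76 and -0.49, on beta6 null arrays -0.98, -0.14, -0.26, -1.05 and -0.85, and on wild type arrays 0.36, 0.54, 0.56, -0.06 and 1.06. Of the TGFb1 arrays 4 lay above all beta6 null arrays and replicate 5 lay among them. The difference of beta6 null with TGFb1 to beta6 null was 1.27 ± 0.34 (SE) (95% interval 0.55 to 1.98, adjusted p 0.0938).

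Mgst1, a microsomal glutathione transferase with peroxidase activity, showed the same layout of arrays. It read 0.50, 0.72, 0.59, 0.38 and -0.46 with TGFb1, -1.32, -0.27, -0.37, -1.10 and -1.05 in beta6 null and -0.37, -0.19, 0.47, -0.53 and 0.36 in wild type. Again 4 TGFb1 arrays lay above the beta6 null range and replicate 5, at -0.46, lay inside it. The difference of beta6 null with TGFb1 to beta6 null was 1.17 ± 0.32 (SE) (95% interval 0.49 to 1.85, adjusted p 0.102).

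**Figure D2:**
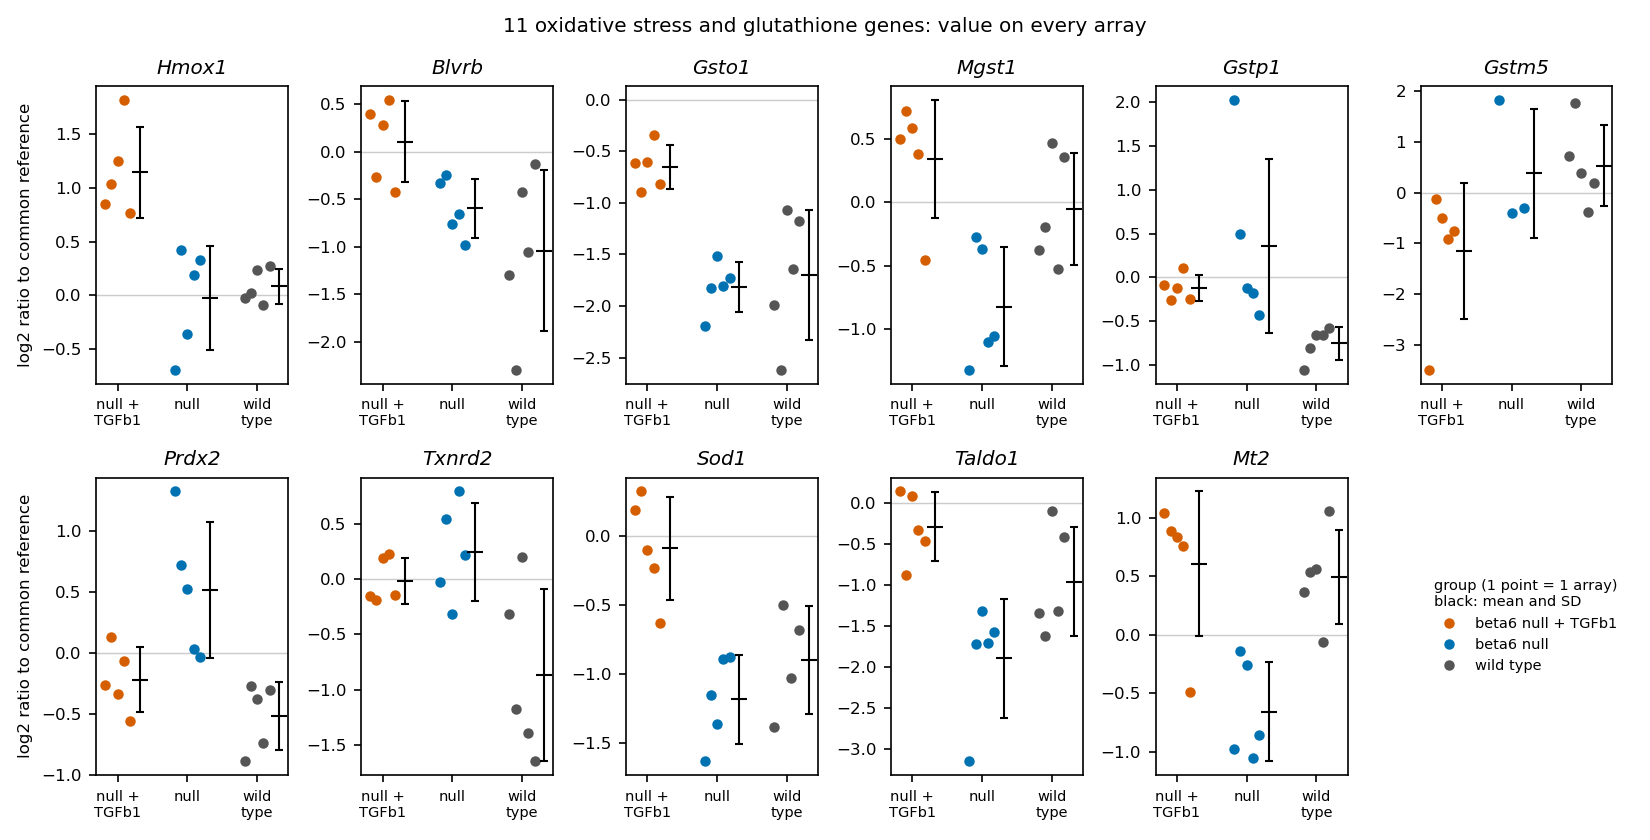
Log2 ratio to the common reference of 11 genes on every array (1 point an array), with the mean and SD of each group in black; each panel has its own vertical axis. The points of beta6 null with TGFb1 lie above those of beta6 null for Hmox1, Gsto1, Sod1 and Taldo1, and those of beta6 null lie above wild type for Prdx2 and Gstp1.

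The adjusted p of these 6 genes lay near the threshold, and which of them passed moved with the arrays used. Without wild type replicate 2, an array of neither group, 4 of the 40 genes then tested passed for beta6 null with TGFb1 against beta6 null. They were Gsto1, Sod1, Hmox1 and Taldo1. Without the TGFb1 replicate 5 Mt2 passed. The share of all features that passed in these fits is not given here. With Xist as a covariate the differences of Hmox1, Gsto1, Mgst1, Sod1, Taldo1 and Mt2 were 1.17, 1.26, 1.32, 1.06, 2.04 and 1.38, with adjusted p from 0.496 to 0.59. Titles of the arrays end in 1 or 2 after a point, with no meaning stated. Within arrays ending in 1 the 6 differences ran from 1.22 to 1.60 (3 arrays against 4), and within those ending in 2 from 0.48 to 1.42 (2 against 1).

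**Figure D3:**
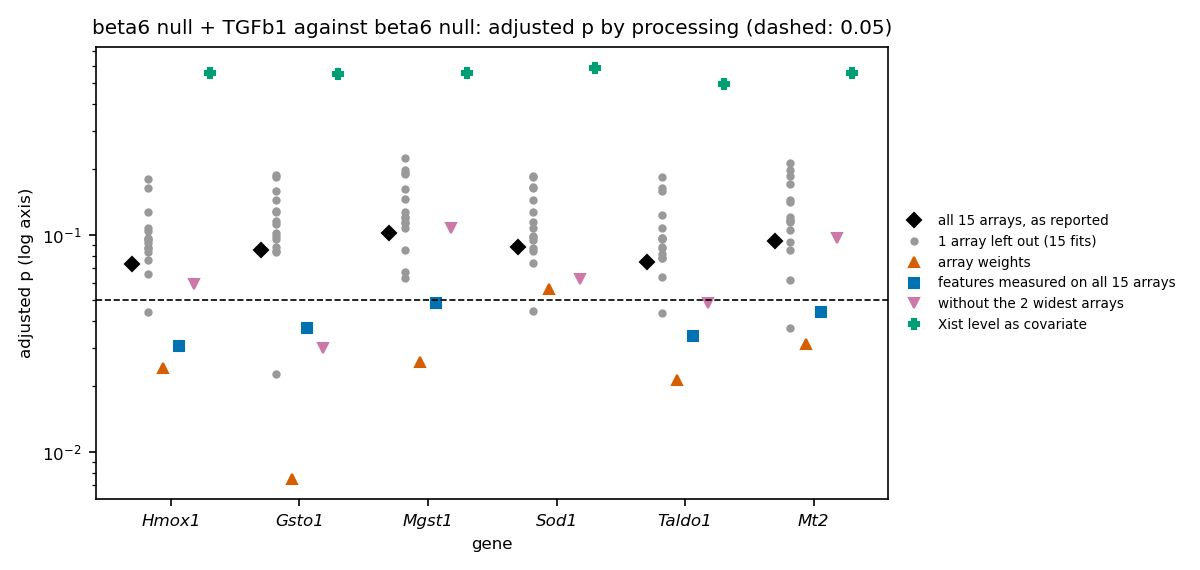
Adjusted p (log axis) of 6 genes for beta6 null with TGFb1 against beta6 null, as reported with all 15 arrays (diamond), with each array left out in turn (grey points) and under 4 other settings; the dashed line is 0.05. The diamonds run from 0.073 for Hmox1 to 0.102 for Mgst1, above the line, while other settings lie on both sides of it.

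The second comparison asks what differs when beta6 is absent. Prdx2, a cytosolic peroxiredoxin abundant in red cells, had the smallest p, and read -0.27, 0.14, -0.34, -0.07 and -0.56 with TGFb1, 1.33, 0.72, 0.53, 0.03 and -0.03 in beta6 null and -0.89, -0.27, -0.38, -0.74 and -0.31 in wild type. All beta6 null arrays were above all wild type arrays, and the TGFb1 arrays overlapped both groups. Beta6 null exceeded wild type by 1.03 ± 0.29 (SE), with a 95% interval of 0.42 to 1.65 and an adjusted p of 0.133. With TGFb1 Prdx2 was -0.74 relative to beta6 null (adjusted p 0.242), the only one of the 9 genes with an unadjusted p under 0.05 that was lower.

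Mt2 was lower on every beta6 null array than on every wild type array, with a difference of -1.15 ± 0.34 (SE) (95% interval -1.87 to -0.44, adjusted p 0.149). The highest beta6 null array, at -0.14, was close to the lowest wild type array, at -0.06. Taldo1 differed by -0.94 ± 0.40 (SE) between beta6 null and wild type (adjusted p 0.366, and -0.62 without beta6 null replicate 1) and Mgst1 by -0.77 ± 0.32 (SE) (adjusted p 0.355), with overlapping arrays for both.

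Gstp1, the glutathione transferase of the pi class, read -0.09, -0.25, -0.12, 0.11 and -0.24 with TGFb1, 2.03, 0.49, -0.12, -0.17 and -0.43 in beta6 null and -1.06, -0.81, -0.66, -0.66 and -0.58 in wild type. The wild type arrays were the lowest of the 3 groups without overlap, and beta6 null replicate 1, one of the arrays with the widest values, read far above the rest. The difference of beta6 null to wild type was 1.11 ± 0.38 (SE), with an adjusted p of 0.253, and 0.69 without beta6 null replicate 1. The label Gstp1 may also take in a near-identical neighbouring copy of the gene, since the probe's sequence was not used here.

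Txnrd2, the thioredoxin reductase of mitochondria, read -0.15, -0.19, 0.20, 0.23 and -0.15 with TGFb1, -0.02, 0.54, -0.32, 0.80 and 0.22 in beta6 null and -0.31, -1.18, 0.20, -1.40 and -1.65 in wild type, as the mean of 2 probes. Its difference of beta6 null to wild type was 1.11 ± 0.35 (SE) (adjusted p 0.205), but the probes did not agree. The first averaged 0.38 with TGFb1, 0.37 in beta6 null and 0.47 in wild type. The second averaged -0.41 with TGFb1, 0.16 in beta6 null and -1.88 ± 1.51 (SD) in wild type, so the difference rests on it.

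With array weights, Mt2 and Txnrd2 passed for beta6 null against wild type, while calls over all features rose as well, as given further below. Within arrays with title endings 1 and 2 the difference was 1.23 and 0.45 for Prdx2, 1.49 and 0.20 for Gstp1, and -1.06 and -1.37 for Mt2 (4 arrays against 2, and 1 against 3).

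The third comparison asks how beta6 null macrophages with TGFb1 differ from wild type. Besides Hmox1 and Gsto1 the smallest p belonged to Blvrb, Sod1, Gstm5 and Txnrd2, with adjusted p of 0.757, 0.787, 0.787 and 0.787. Blvrb, a flavin and biliverdin reductase, read 0.39, -0.26, 0.28, 0.55 and -0.43 with TGFb1, -0.33, -0.24, -0.76, -0.66 and -0.98 in beta6 null and -1.30, -2.29, -0.42, -1.06 and -0.13 in wild type. The wild type arrays were widely spread and overlapped the TGFb1 arrays, and the difference of beta6 null with TGFb1 to wild type was 1.15 ± 0.37 (SE).

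Gstm5, a glutathione transferase of the mu class, was the 1 gene of the 6 that was lower with TGFb1. It read -3.49, -0.12, -0.51, -0.91 and -0.76 with TGFb1, 1.83, -0.40 and -0.31 on the 3 beta6 null arrays with a value, and 0.71, 1.76, 0.38, -0.38 and 0.18 in wild type. The group means differed by -1.69 ± 0.66 (SE) between beta6 null with TGFb1 and wild type, and TGFb1 replicate 1, at -3.49, read far below the other 4. Without that array the difference was -1.11. Sod1 differed by 0.81 ± 0.30 (SE) and Txnrd2 by 0.85 ± 0.35 (SE) from wild type.

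The other genes are given by role, as group means ± SD over arrays in beta6 null with TGFb1, then beta6 null, then wild type. Ftl1, a ferritin light chain that stores iron, averaged 0.38 ± 0.35, 0.21 ± 0.54 and -0.07 ± 0.41 (n = 5 each). With Hmox1 and Blvrb it made 3 of 3 heme and iron genes with a difference above 0 between beta6 null with TGFb1 and beta6 null, where the difference of Ftl1 was 0.18.

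Of the 5 genes that make and recycle glutathione, all 5 had a difference above 0 between beta6 null with TGFb1 and beta6 null (median 0.77), and all 5 a difference below 0 between beta6 null and wild type (median -0.67). These comparisons share the beta6 null arrays, and in the first the sign of Gss turned when any 1 of 4 arrays was left out. Glrx, a glutaredoxin that removes glutathione from proteins, had the smallest p of the 5 for TGFb1, with a difference of 0.999 ± 0.37 (SE) to beta6 null and an adjusted p of 0.212. It averaged 0.02 ± 0.32, -0.98 ± 0.67 and -0.54 ± 0.62 (n = 5 each), and its 5 TGFb1 arrays, from -0.34 to 0.36, lay above the beta6 null range of -2.17 to -0.62. Gclc, the catalytic subunit of the enzyme that starts glutathione synthesis, averaged -0.25 ± 0.34 (n = 5), -0.68 ± 0.61 (n = 4) and 0.06 ± 0.80 (n = 5). Gclm, its modifier subunit, averaged 0.25 ± 0.74 (n = 5), -0.52 ± 0.78 (n = 4) and 0.15 ± 0.23 (n = 5). For both subunits the groups overlapped, and neither reached an unadjusted p of 0.05 in a comparison. Gss, which completes glutathione, differed by 0.01 between beta6 null with TGFb1 and beta6 null, and by -0.28 between beta6 null and wild type. Gsr, which reduces oxidised glutathione, spread over -2.15 to 0.47 with TGFb1 (n = 4), -4.18 to 0.05 in beta6 null (n = 4) and -1.03 to 0.21 in wild type (n = 5).

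Glutathione peroxidases also had 3 of 3 differences above 0 between beta6 null with TGFb1 and beta6 null, with a median of 0.39, although that of Gpx3 was near 0 and turned when any 1 of 4 arrays was left out. Gpx1, the cytosolic enzyme, averaged -0.25 ± 0.48, -1.26 ± 1.15 and -0.91 ± 1.32 (n = 5 each), and Gpx4, which reduces lipid peroxides in membranes, averaged 0.55 ± 0.41 (n = 5), 0.16 ± 0.36 (n = 5) and -0.06 ± 0.90 (n = 4). Gpx3, the secreted enzyme, differed by 0.01 between beta6 null with TGFb1 and beta6 null. In that pair its arrays were spread very unequally, with an SD of 0.15 with TGFb1 and 1.56 in beta6 null.

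The 10 measured glutathione transferases, which join glutathione to reactive compounds, differed among themselves in sign. Between beta6 null with TGFb1 and beta6 null 7 of 10 differences were above 0 (median 0.16, range -1.78 to 1.17), and between beta6 null and wild type 4 of 10 were (median -0.13, range -1.12 to 1.81). At the low end of the first range and the high end of the second stood Gstm2, which ran from -1.80 to 3.34 within the beta6 null group alone. Gsta3, Gsta4, Gstm1, Gstt1 and Mgst3 had differences of 0.07 to 0.91 between beta6 null with TGFb1 and beta6 null, none with an unadjusted p under 0.05. The sign turned with 1 array left out for Gsta3, Gsta4 and Gstt1: without beta6 null replicate 3 Gsta4 was -1.51, without beta6 null replicate 2 Gstt1 was -0.49, and without TGFb1 replicate 4 Gsta3 was -0.28. Members of the alpha, mu and pi classes are close in sequence, and whether a probe also takes up a related transcript was not tested.

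Of the peroxiredoxins besides Prdx2, Prdx4, the enzyme of the endoplasmic reticulum, averaged 0.38 ± 0.27, -0.21 ± 0.20 and -0.12 ± 0.64 (n = 5 each), over 2 probes. Its probes gave 0.03 and 0.73 with TGFb1, -0.49 and 0.07 in beta6 null and -0.86 and 0.62 in wild type, so they ordered beta6 null and wild type differently. Prdx1, a cytosolic enzyme, differed by 0.41 and Prdx3, its mitochondrial relative, by 0.10 between beta6 null with TGFb1 and beta6 null. Srxn1, which repairs overoxidised peroxiredoxins, spread over -2.66 to -0.06 with TGFb1, -3.56 to 0.85 in beta6 null and -2.68 to 0.25 in wild type. Prdx3 was the steadiest of these, with group means from -1.10 to -0.94 in the 3 groups.

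All 3 superoxide dismutases had a difference above 0 between beta6 null with TGFb1 and beta6 null (median 1.10), but the sign of Sod3 rested on 1 array: its difference was 0.81, and -0.58 without beta6 null replicate 3. Sod2, the mitochondrial enzyme, averaged -0.34 ± 0.50, -1.60 ± 1.53 and -1.58 ± 1.66 (n = 5 each), and Sod3, the extracellular one, averaged -0.16 ± 1.33 (n = 5), -0.97 ± 2.79 (n = 4) and 0.16 ± 0.39 (n = 5). Beta6 null arrays ran from -4.25 to -0.47 for Sod2 and from -5.14 to 0.65 for Sod3. The 95% interval of beta6 null with TGFb1 minus beta6 null was -0.40 to 2.93 for Sod2 and -1.39 to 3.01 for Sod3, and both intervals include 0.

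Of the 4 thioredoxin genes 1 had a difference above 0 between beta6 null with TGFb1 and beta6 null (median -0.19), and with 1 array left out 1 to 3 had. The largest of the 4 belonged to Txnrd1, the cytosolic thioredoxin reductase, which averaged -0.50 ± 0.36, -1.40 ± 0.49 and -1.35 ± 1.51 (n = 5 each), with a difference to beta6 null of 0.90 ± 0.56 (SE). Txn1, cytosolic thioredoxin, differed by -0.12 and by 0.08 in the first and second comparison, and Txn2, the mitochondrial form, by -0.41 and 0.82. None of these had an unadjusted p under 0.05, and without beta6 null replicate 2 Txn2 was 0.13 in the first comparison.

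The regulators showed no difference past the threshold. Nfe2l2, which encodes Nrf2, averaged 0.28 ± 0.27, -0.35 ± 1.31 and 0.67 ± 0.62 (n = 5 each), with a difference of -1.02 ± 0.52 (SE) between beta6 null and wild type (95% interval -2.12 to 0.08). Keap1, which marks Nrf2 for breakdown, averaged 0.48 ± 0.30 (n = 5), 0.61 ± 0.40 (n = 4) and 0.02 ± 1.56 (n = 5). Sqstm1, the autophagy receptor that binds Keap1, averaged 0.07 ± 0.33, -0.25 ± 0.44 and 0.37 ± 0.49 (n = 5 each), and Nfe2l1, the related factor Nrf1, averaged -0.65 ± 0.47, -0.21 ± 0.93 and -0.70 ± 0.49. Transcript levels of Nrf2 and Keap1 say nothing of the protein, through which this pathway is chiefly set. Nqo1, a quinone reductase often used as a readout of Nrf2, could hardly be read here: wild type arrays ran from -2.91 to 5.49, and the 95% interval of beta6 null minus wild type was -4.46 to 0.84.

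**Figure D4:**
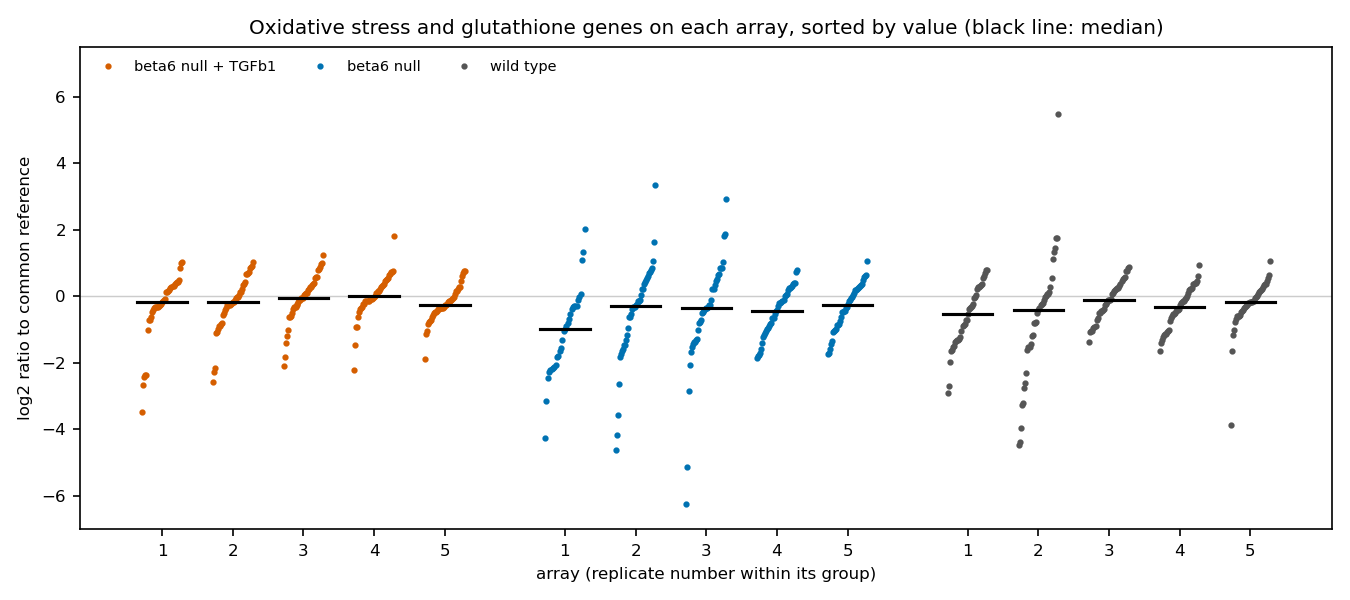
Log2 ratio to the common reference of the measured genes on each of the 15 arrays, sorted by value within an array, with the array's median over these genes as a black line. The medians run from -0.28 to 0.00 with TGFb1, from -0.98 to -0.27 in beta6 null and from -0.53 to -0.12 in wild type.

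The arrays differed in how widely the set was spread. The SD of the genes on an array was 0.53 to 1.02 with TGFb1, 0.71 to 1.67 in beta6 null and 0.60 to 1.93 in wild type, where the highest value belonged to wild type replicate 2. With quantile normalization the median difference of the set was 0.30 between beta6 null with TGFb1 and beta6 null, -0.04 between beta6 null and wild type and 0.11 between beta6 null with TGFb1 and wild type. With all arrays scaled to an equal spread it was 0.27, -0.08 and 0.21.

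Related genes outside the set were counted over 4 lists. Of other antioxidant and glutathione genes 32 of 47 were measured, of other genes tied to Nrf2 29 of 36, of NADPH oxidase genes 13 of 18 and of metal and iron genes 21 of 30. None of these passed in any comparison. At an unadjusted p under 0.05, beside the 15% of all features, 7 other antioxidant genes (5 higher, 2 lower), 7 other Nrf2 genes (4 higher, 3 lower), 2 NADPH oxidase genes (1 each way) and 5 metal and iron genes (4 higher, 1 lower) were found for beta6 null with TGFb1 against beta6 null. For beta6 null against wild type, beside 11.5%, the counts were 6 (3 each way), 1 (higher), 2 (1 each way) and 3 (1 higher, 2 lower). For beta6 null with TGFb1 against wild type, beside 6.28%, they were 2 (both higher), 5 (all higher), 2 (1 each way) and 2 (1 each way).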

How the data were processed

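Mouse alveolar macrophage total RNA was hybridised on 15 2-colour arrays, with a common reference in channel 1. The deposited values were taken as log2 ratios per probe. The sources used here do not give the authors' steps behind these log2 values, their base or their direction (sample over reference is likely, as described above). Groups came from the labels. Of 17225 probes 30 control spots were left out by name. Probes were named through the platform annotation and a RefSeq gene table of GRCm38.p6, and probes of 1 gene were averaged.

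After median centring, 3 group means were fitted to the 13273 features measured on 3 or more arrays of every group (R 4.3.3, lmFit and eBayes of limma 3.58.1). Missing values were dropped and none imputed. P-values were adjusted by Benjamini-Hochberg over all features of a comparison, with a threshold of 0.05. The fit was tested on simulated data. Promoter letters were searched with Python 3.11.15.

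The members and lists were chosen with earlier results of these data known, so no test of the set was made. Described on every array were genes past the threshold and, in each comparison, the 6 with the smallest p. Pathway genes were to be named where they passed. Probe sequences were not used, so cross-hybridisation between related genes (transferases, metallothioneins, ferritins, peroxiredoxins) was not tested. The number of arrays limits the precision. Alternatives covered scaling, filters, probes, array weights, the arrays fitted, the title ending as a block, Xist as a covariate and arrays left out.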

Additional observations from a re-analysis of the deposited data

Results flagged for a closer look

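Each of the 41 genes was checked in each group for an array far from the others of its group (Dixon's test, 4 or more values). Of 118 groups 18 held such an array, where chance alone gives about 1 in 20 of them. Of the 18, 8 lay on wild type replicate 2, one of the widest arrays.

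On that array Nfe2l2 read 1.75 and Gclc 1.44, above their groups. The other 6 read far below: Gpx1 -3.20, Gpx3 -4.37, Sod2 -4.48, Txn2 -3.26, Txnrd1 -3.97 and Keap1 -2.76. The other wild type arrays ranged from 0.27 to 0.59 for Nfe2l2 and from -1.21 to -0.25 for Txnrd1.

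On arrays of beta6 null with TGFb1, Gstm5 read -3.49 and Keap1 1.01 on replicate 1, Nqo1 read -2.56 on replicate 2 and Nfe2l1 -1.45 on replicate 4. On replicate 5 Mgst1 read -0.46, against 0.38 to 0.72 on the other arrays of its group, and Mt2 read -0.49, against 0.76 to 1.04. The titles of this array and of beta6 null replicate 4 are numbered apart from the other titles, with no meaning stated. Without both arrays the smallest adjusted p for beta6 null with TGFb1 against beta6 null was 0.0695 among 39 genes (limma).

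On beta6 null arrays, Glrx read -2.17 and Taldo1 -3.15 on replicate 1. On replicate 3 Gsta4 read -6.25 and Sod3 -5.14, while the other beta6 null arrays with a value read 0.06 to 0.48 for Gsta4 and 0.23 to 0.65 for Sod3.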

How the results depend on the processing

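The 3 comparisons were repeated under 28 settings, 15 of which left out 1 array each. For beta6 null with TGFb1 against beta6 null, 0 of 41 genes passed as reported. Among features measured on all 15 arrays 5 of 25 genes passed (Gsto1, Mgst1, Hmox1, Taldo1 and Mt2). Sod1, with no value on wild type replicate 2, was not among the 25. With array weights 7 of 41 passed (the same 5, Pgd and Txnrd1), and calls over the whole table rose too, as given below. Without the 2 widest arrays 3 of 40 passed (Gsto1, Pgd and Taldo1). With 1 array left out 0 to 4 of the 38 to 41 genes tested passed. For the other settings the share of all features that passed is not given here, so these counts cannot be read as particular to this set. For beta6 null against wild type 2 passed with array weights, where calls over the whole table rose too. The median difference between beta6 null with TGFb1 and wild type was 0.56 over the 25 genes measured on all 15 arrays, against 0.30 over 41 as reported. The median of all features was 0.13 in that setting and 0.07 as reported. The median difference of the set was 0.12 without wild type replicate 2 (40 genes) and 0.50 without wild type replicate 5 (39 genes). Between beta6 null with TGFb1 and beta6 null it was 0.28 without beta6 null replicate 1, against 0.43. Between beta6 null and wild type the median was -0.34 without beta6 null replicate 4, -0.32 without wild type replicate 2 and -0.08 without beta6 null replicate 3. The cause was not tested, but fewer features were tested in the complete set.

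Of 499 alternatives for the 18 described differences, 19 passed the threshold where the reported value did not, in 8 of the 18, and 2 changed sign: with the first probe alone Txnrd2 was -0.11 between beta6 null and wild type and -0.09 between beta6 null with TGFb1 and wild type. Of the others, Gsto1 between beta6 null with TGFb1 and beta6 null was 0.71 with quantile normalization and 0.76 with an equal spread, Prdx2 and Gstp1 between beta6 null and wild type were 0.67 and 0.52 with array weights, Blvrb and Gstm5 between beta6 null with TGFb1 and wild type were 0.73 and -0.94 with array weights, and Txnrd2 between beta6 null and wild type was 1.84 with Xist as a covariate and 2.03 with the second probe alone. The medians of the set between beta6 null and wild type were -0.04 with quantile normalization, -0.04 with the title ending as a block and -0.08 with an equal spread. Means over markers with a value on all 15 arrays were chosen after seeing the data. Likewise chosen then, leaving out each array for every gene turned the sign of 10 of 41 differences between beta6 null with TGFb1 and beta6 null, 16 between beta6 null and wild type and 15 between beta6 null with TGFb1 and wild type. Features called in the whole table ranged with the setting from 0 with Xist as a covariate to 648 with array weights for beta6 null with TGFb1 against beta6 null (94 as reported), and from 0 to 396 for beta6 null against wild type (126 as reported) under the same settings. Against wild type, beta6 null with TGFb1 had 0 features past the threshold with limma, and 833 at an unadjusted p under 0.05. No paired analysis was possible because the labels carry no replicate numbers.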

Other observations

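No gene of the 4 related lists passed, and those below were picked after their values were seen, as the genes with the smallest p of each list for beta6 null with TGFb1 against beta6 null, with the nearest gene of the opposite sign where its p was close. In the metal and iron list Trf, the iron carrier transferrin, differed by 1.17 ± 0.30 (SE) between beta6 null with TGFb1 and beta6 null (adjusted p = 0.0837, limma) and by -1.19 ± 0.30 (SE) between beta6 null and wild type (adjusted p = 0.0856). Among the NADPH oxidase genes Hvcn1, a proton channel that sustains the oxidase, differed by 1.12 ± 0.32 (SE; adjusted p = 0.109) between beta6 null with TGFb1 and beta6 null, and Duoxa1, a maturation factor of a dual oxidase, by -1.29 ± 0.37 (SE; adjusted p = 0.118). Among other antioxidant genes Selenop, a secreted selenium carrier, differed by 1.34 ± 0.41 (SE; adjusted p = 0.138), and Gstm3, a transferase of the mu class, by -1.41 ± 0.43 (SE; adjusted p = 0.139). In the Nrf2 list Nfe2l3, a relative of Nrf2, differed by -0.80 ± 0.28 (SE; adjusted p = 0.204). Because the opposite sign was part of the rule, the signs shown here do not describe the lists, whose counts by sign are given above.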
